A study of Mus musculus with 221 samples.

Results

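The oocyte stores messenger RNA that serves the embryo until its own genes are switched on, and Omt2a, Omt2b, Oosp1, Oosp2 and Oosp3 are 5 transcripts of that store. They were picked by name as the Omt2 and Oosp families, 5 of the 55291 genes of the count table, and because Omt2a and Omt2b are abundant and follow the level of mitochondrial transfer RNA (mt-tRNA) taken without mt-Ts1. Those values therefore appear below as a description with no test. The families were read in single mouse embryos at the early 2-cell stage, each sequenced as 1 library by Smart-seq2, which reverse-transcribes RNA from its poly(A) tail and amplifies the copies by PCR. The study asked whether what a father eats before conception leaves a mark on the RNA of his embryos.

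All embryos came from in vitro fertilization of oocytes whose nuclear DNA is C57BL/6N and whose mtDNA is of the Staudach (ST) strain. Sperm came from C57BL/6N males on High Fat Diet (HFD) or Low Fat Diet (LFD); 99 embryos were LFD and all the others HFD, and the diet of the sire is the only group that the labels give. Per the study's methods, the mothers were unexposed, superovulated and pooled, the sperm was frozen and thawed, and each fertilization date used a male of either diet and other males than the dates before. The labels name neither the sire nor the date of an embryo, so p-values treat embryos as independent, and differences between the few sires of a diet cannot be told apart from the diet.

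Omt2a and Omt2b are named for oocyte maturation and encode short proteins of the growing and maturing oocyte. The Oosp genes encode oocyte secreted proteins, which carry a signal peptide and resemble part of a zona pellucida protein, the kind of protein that forms the coat of the egg. After ovulation the oocyte makes no RNA, its stored messages are translated and then removed in turn, and by the 2-cell stage the embryo begins to transcribe its own genes. The level of a stored transcript in a 2-cell embryo thus carries both how much was stored and how much has been removed. Because copying starts at the poly(A) tail, messages without a tail may be missed, and tail length was not measured.

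Omt2a and Omt2b lie side by side on chromosome 9 of build GRCm38. Omt2a spans chr9:78311972-78314796 on the minus strand with 1465 exon bases, and Omt2b spans chr9:78327589-78329620 on the plus strand with 1546. The genes are 12793 bases apart and point away from each other. Their aligned coding sequences were 81.1% identical over 291 bases. The last 300 coding bases of the longest annotated Omt2a transcript and the 291 bases of Omt2b aligned to them are shown because they let a reader see which part of the messages can be told apart by a read. Capitals mark bases that differ or that have no partner (9 bases of Omt2a have none). Both stretches run across introns, within chr9:78312248-78313393 for Omt2a and chr9:78328207-78329353 for Omt2b.
Omt2a: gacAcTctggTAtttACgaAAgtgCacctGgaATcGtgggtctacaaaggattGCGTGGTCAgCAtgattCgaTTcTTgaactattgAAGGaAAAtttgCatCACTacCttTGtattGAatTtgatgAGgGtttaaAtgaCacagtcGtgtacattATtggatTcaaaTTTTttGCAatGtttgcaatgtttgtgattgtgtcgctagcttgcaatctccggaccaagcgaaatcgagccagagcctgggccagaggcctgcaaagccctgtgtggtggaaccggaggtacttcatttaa
Omt2b: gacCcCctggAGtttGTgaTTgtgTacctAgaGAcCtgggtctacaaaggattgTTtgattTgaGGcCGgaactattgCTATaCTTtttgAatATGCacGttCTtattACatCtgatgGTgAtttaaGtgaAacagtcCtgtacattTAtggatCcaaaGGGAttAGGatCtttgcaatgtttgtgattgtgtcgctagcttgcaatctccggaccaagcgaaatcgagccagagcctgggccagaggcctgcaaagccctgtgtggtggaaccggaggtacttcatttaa

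The final 120 bases of these stretches were the same in both genes, while the 171 aligned bases before them were 67.8% identical. Over all annotated transcripts, 31.4% of the 75-base stretches of Omt2a were also present in Omt2b, and 29.6% of those of Omt2b in Omt2a. Per the study's methods the reads were longer than that and came in pairs, so these are not the shares of ambiguous reads. The counting program leaves out reads that align to several places unless told otherwise, so the levels of both genes rest on the reads that differ. How far this lowers either level was not tested.

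The Oosp genes form a row on chromosome 19. Oosp2 (chr19:11647279-11660559, minus strand, 678 exon bases) is followed after 6901 bases by Oosp1 (chr19:11667460-11691150, minus strand, 972 exon bases), and after a further 5905 bases by Oosp3 (chr19:11697055-11711874, plus strand, 823 exon bases). Their coding sequences were 59.5% to 61.1% identical in pairs, and no stretch of 31 bases was shared between any pair, so reads of that length are not ambiguous among them. Annotated coding regions were longest for Oosp1 (202 codons before the stop) and Oosp3 (195 codons) and shorter for Oosp2 (168 codons).

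The promoters of Omt2a and Omt2b are shown because these transcripts moved together from embryo to embryo, as described below. RefSeq promoter windows (GRCm38.p6, 250 bases before to 50 after the annotated start) were found for 4 of the 5 genes, those other than Oosp3. Capitals mark matches to 4 motifs searched on both strands: CANNTG (the E-box, bound by basic helix-loop-helix factors such as FIGLA), the CCAAT box, the element TAATTG (bound by the oocyte factor NOBOX) and the TATAAA box. No match overlapped another. The window of Omt2a is chr9:78313999-78314298 on the minus strand and that of Omt2b chr9:78327780-78328079 on the plus strand. Both windows lie inside the gene spans given above, so the RefSeq start is not the outermost start in the annotation used for counting.
Omt2a promoter: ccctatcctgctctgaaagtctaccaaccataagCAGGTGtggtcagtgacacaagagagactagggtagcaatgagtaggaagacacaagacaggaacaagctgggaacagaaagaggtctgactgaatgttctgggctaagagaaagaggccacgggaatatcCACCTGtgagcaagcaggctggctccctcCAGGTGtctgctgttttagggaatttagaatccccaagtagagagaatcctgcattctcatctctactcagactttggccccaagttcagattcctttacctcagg
Omt2b promoter: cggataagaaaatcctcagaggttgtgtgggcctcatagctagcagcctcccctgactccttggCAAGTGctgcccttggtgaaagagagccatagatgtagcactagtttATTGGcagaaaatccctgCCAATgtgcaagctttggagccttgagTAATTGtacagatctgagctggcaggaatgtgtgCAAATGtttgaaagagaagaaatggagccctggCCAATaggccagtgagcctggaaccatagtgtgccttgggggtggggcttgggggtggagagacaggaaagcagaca

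The Omt2a window held 3 matches to CANNTG and none to the other motifs. The Omt2b window held 2 matches to CANNTG, 3 to CCAAT and 1 to TAATTG. Oosp1 and Oosp2 held 5 matches and 1 match to CANNTG, and none of the 4 windows held TATAAA. Among 32851 promoter windows of the same length, 72.3% held CANNTG, 37.4% CCAAT, 8.0% TAATTG and 13.6% TATAAA, so an E-box is common and the TAATTG of Omt2b is the less usual match. Part of the Omt2b window itself is found in Omt2a: 41.1% of its 270 stretches of 31 bases lie in annotated Omt2a transcripts, and 7.41% lie in annotated Omt2b transcripts.

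Total counts per embryo ran from 1937251 to 17246791 (median 5706066), and between 11364 and 21638 genes (median 18833) had a count. In 8 embryos, 4 of each diet, fewer than 15000 genes had a count. They stand apart in Omt2 levels. For the Omt2 genes the edgeR diet fold changes and the slopes over both diets are given with and without them, as are some correlations. The search for the most alike genes and the slopes within a diet, on other mitochondrial RNAs or among nuclear genes were not repeated without them. The summed level of 7 oocyte and embryo markers ran from 3293 to 12450 CPM (counts in each 1000000 of all counts) over HFD embryos and from 3419 to 13470 CPM over LFD embryos. Of 7 sperm markers the sum stayed at or below 20.11 CPM. The sum of 12 cumulus and granulosa cell markers reached 203 CPM in HFD and 59.45 CPM in LFD embryos. That of 11 macrophage markers had medians of 37.43 CPM in HFD and 39.21 CPM in LFD embryos, with a highest value of 3376 CPM in 1 HFD embryo. Fewer molecules of a transcript and more RNA of other kinds in an embryo cannot be told apart from CPM.

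Omt2a and Omt2b were among the most abundant transcripts of the 2-cell embryo, at ranks 10 and 11 of 55291 genes by mean CPM. Omt2a had 2566 CPM in the lowest, 4750 CPM in the median and 16240 CPM in the highest HFD embryo, and 2645, 4231 and 16070 CPM in LFD embryos. For Omt2b the corresponding levels were 2484, 4660 and 16210 CPM in HFD and 2647, 4136 and 17780 CPM in LFD embryos. The ranges of the diets overlapped almost completely for both genes. Omt2a held 0.484% and Omt2b 0.477% of all counts.

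The Oosp transcripts were lower and differed among themselves. Oosp1 had 243.7, 830.6 and 2706 CPM in the lowest, median and highest HFD embryo and 180.8, 935.3 and 1373 CPM in LFD embryos, and it ranked 83 of all genes. Oosp3 had 139.4, 596.2 and 2798 CPM in HFD and 150.1, 560.2 and 1056 CPM in LFD embryos, with rank 166. The highest levels of both genes belonged to the same library, HFD embryo 28. Oosp2 was the scarce member, with 6.413, 27.54 and 130.2 CPM in HFD and 5.799, 27.44 and 154.4 CPM in LFD embryos and rank 4961. Every embryo had a count of each of the 5 transcripts, and the lowest count was 28, for Oosp2.

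**Figure D1:**
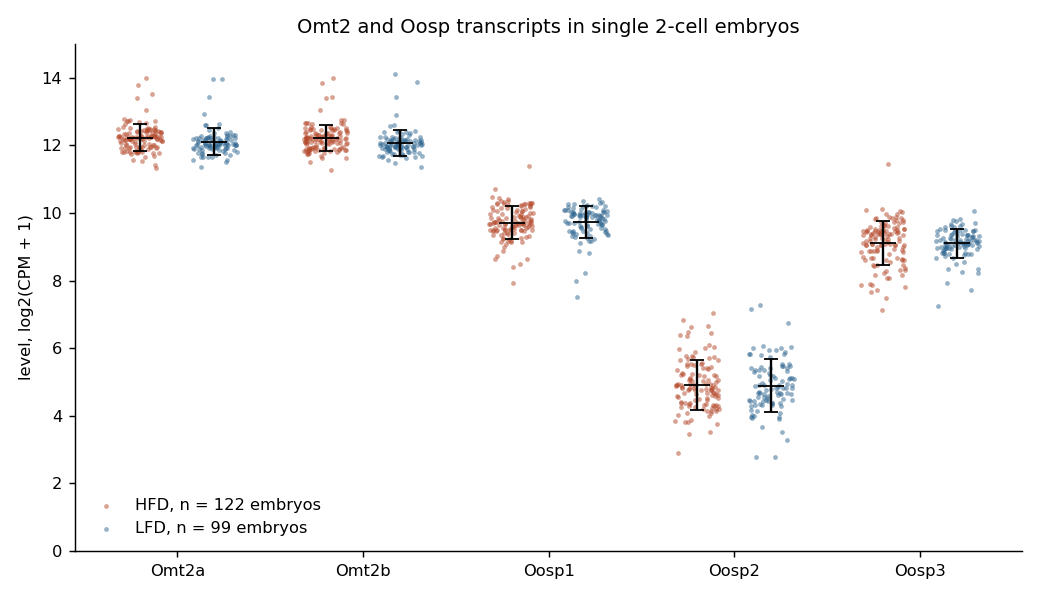
Level of each transcript in each embryo as log2(CPM + 1), with HFD embryos and LFD embryos (n = 99) side by side; bars are the mean ± SD. Omt2a and Omt2b lie near 12 in both diets, Oosp1 and Oosp3 lower, and Oosp2 near 5, with the diets overlapping for every transcript.

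Levels were compared between genes per kilobase of exon, because a longer transcript yields more fragments. The length was that of the exon bases of each gene given above, not that of a single transcript. The order by median counts per kilobase per 1000000 was Omt2a (3099), Omt2b (2838), Oosp1 (889.9), Oosp3 (698.8) and Oosp2 (40.6). On this length Omt2a exceeded Omt2b in 201 embryos and was below it in the others. The log2 ratio was 0.10 ± 0.08 (mean ± SD), which is small beside the spread of either gene. In CPM, without any length, the mean log2 ratio was 0.02. The longest annotated coding transcript had 1167 bases for Omt2a and 735 for Omt2b, while Omt2b had more exon bases. The order of this pair thus depends on the length used and was not settled. Omt2b exceeded Oosp1 and Oosp3 exceeded Oosp2 in every embryo. Oosp1 exceeded Oosp3 in 84.2% of embryos, but the log2 ratio of 0.37 ± 0.42 was within its own spread, so these neighbours in the order did not differ beyond it. Within the row on chromosome 19, then, Oosp1 and Oosp3 were near each other and the neighbour Oosp2 was 30.3-fold below Oosp1 by the median ratio of CPM.

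The Omt2 transcripts were also the steadiest members. Around the mean of its diet, the SD of log2(CPM + 1) was 0.397 for Omt2a and 0.394 for Omt2b, compared with a median of 0.844 over the tested genes, and only 4.59% and 4.41% of those genes varied less. The SD was 0.476 for Oosp1, 0.561 for Oosp3 and 0.756 for Oosp2. Scarcer members thus varied more, and the tested genes were not matched for level. Whether the Omt2 genes are steady for their abundance was not tested. Without the 8 embryos of few genes the SD of Omt2a was 0.326 over HFD and 0.253 over LFD embryos, so that part of its spread lay in those libraries.

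Omt2a and Omt2b moved together from embryo to embryo. Pearson's r of their log2 levels was 0.978 among HFD and 0.985 among LFD embryos, or 0.966 and 0.965 without the 8 embryos. Their ratio stayed between -0.223 and 0.23 on the log2 scale over all embryos, around a mean of 0.02. Correlations here and below are descriptions: the points share 1 count table, differ in depth and, for this pair, share sequence. Oosp1 and Oosp3 moved together less closely (r = 0.70 in HFD and 0.683 in LFD embryos, or 0.681 and 0.555 without the 8). For Oosp2 and Oosp3 r was 0.388 and 0.349, and for Oosp2 and Oosp1 0.126 and 0.037. The row of Oosp genes thus did not move as a unit. Between the families r was at or below 0 in both diets for Omt2a with Oosp1 (-0.282 and -0.11) and with Oosp3 (-0.225 and -0.112), but for Omt2a with Oosp1 it was -0.115 and 0.121 without the 8 embryos.

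**Figure D2:**
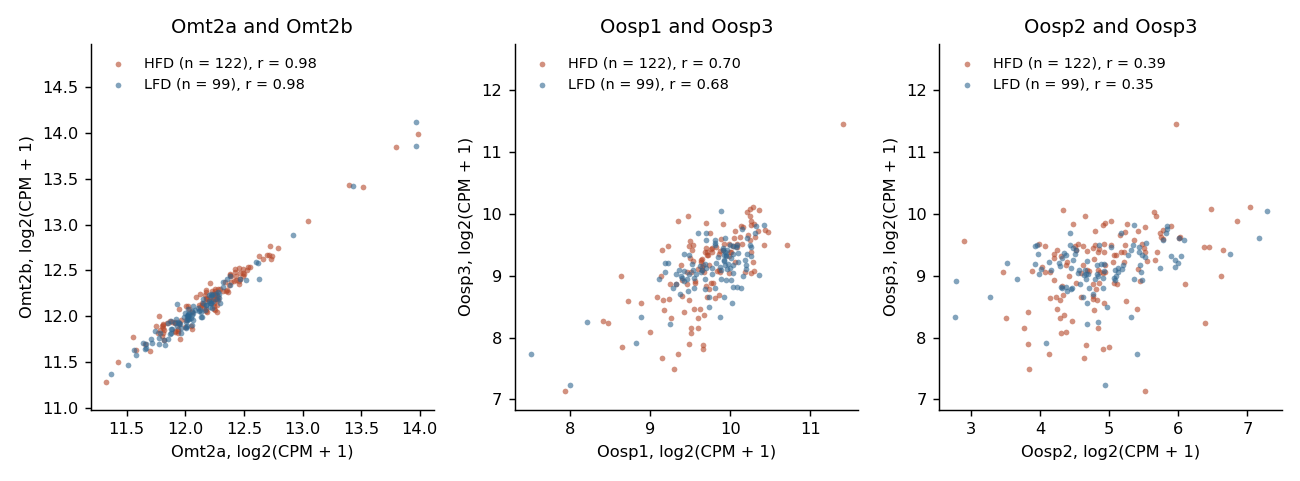
Levels of pairs of transcripts in single embryos, both axes in log2(CPM + 1), 1 point per embryo, HFD and LFD (n = 99). Omt2a and Omt2b lie on a line, Oosp1 and Oosp3 form a broad band with HFD embryo 28 at its upper end, and Oosp2 is only loosely related to Oosp3.

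Over all embryos of both diets, with the mean of each diet removed, the genes most like each member were sought among 9222 genes. For Omt2a the leading genes were Cycs (cytochrome c, r = 0.813) and Calm2 (calmodulin, r = 0.788). For Omt2b both led as well, with r of 0.806 and 0.768. Oosp3 was most like Gm19224 (r = 0.971), then Rfpl4 (r = 0.806), an oocyte RING finger protein, and Obox5 (r = 0.752), an oocyte homeobox gene. For Rfpl4 r was 0.869 among HFD and 0.627 among LFD embryos, and for Obox5 0.808 and 0.622. Oosp1 was most like Gm19224 (r = 0.691), AA623943 (r = 0.685) and Csnk2b, the regulatory subunit of casein kinase 2 (r = 0.68). Oosp2 was most like Myocos (r = 0.688), Gyg, which primes glycogen synthesis (r = 0.688), and the antioxidant enzyme Prdx1 (r = 0.686). Other members were left out of these searches.

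Gm19224 is annotated within the span of Oosp3 (chr19:11703309-11704101), on the opposite strand, and shares 57 exon bases with it, 7.19% of its own exon bases. Smart-seq2 libraries keep no strand while the counting used the setting for the reverse strand, so reads over the shared bases cannot be told apart in these counts. No stretch of 75 bases, and 3.78% of the 31-base stretches of Oosp3, were found in annotated transcripts of Gm19224. What the other reads of Gm19224 come from was not tested. Oosp3 exceeded Gm19224 by a median of 2.47-fold in CPM, and the log2 ratio of 1.32 ± 0.14 (SD) over all embryos had a smaller spread than either gene. No other member shares exon bases with an annotated gene.

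The genes around the members were read to see whether high levels belong to the neighbourhood. Gsta2, a glutathione transferase only 1398 bases from the Omt2 genes, had a median of 0 CPM, as had Gsta1, Dppa5b and Dppa5c on the far side. Medians were 5.64 CPM for Gsta4, 12.4 CPM for the helicase gene Ddx43, 53.2 CPM for Ooep, a part of the subcortical maternal complex, and 87.5 CPM for Dppa5a. All were far below both Omt2 genes. Around the Oosp genes, Ms4a4d, Ms4a2, Ms4a3, Cblif and Olfr1417 had medians of 0 CPM, and Ms4a6d, Mrpl16 and Stx3 had 2.03, 6.55 and 0.619 CPM. Of these 16 named neighbours none came near Omt2a, Omt2b, Oosp1 or Oosp3, while the level of Oosp2 was below those of Dppa5a and Ooep.

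The first comparison asked whether any of these stored transcripts differed with the diet of the sire. On the log2 scale Omt2a had a mean of 12.226 ± 0.401 (SD) over HFD embryos and of 12.107 ± 0.392 over LFD embryos. Omt2b had 12.215 ± 0.395 and 12.075 ± 0.393. Omt2b was above the LFD median in 70.5% of HFD embryos (86) and Omt2a was above it in 83 HFD embryos, but the ranges overlapped, and only 1 HFD embryo for Omt2a and 0 for Omt2b exceeded the top LFD value. The edgeR quasi-likelihood test gave a log2 fold change (HFD over LFD) of 0.154 (SE 0.063, p = 0.0162) for Omt2a and 0.173 (SE 0.064, p = 0.00745) for Omt2b. After Benjamini-Hochberg adjustment over 14820 genes the false discovery rate (FDR) was 0.224 and 0.149, so neither passed the threshold of 0.05. This pair was chosen for following mt-tRNA without mt-Ts1, whose log2 level had a mean of 6.947 in HFD and 6.462 in LFD embryos. Diet tests of the Omt2 genes, here and below, are thus not independent of that choice.

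None of the Oosp genes passed the threshold either. Oosp1 had 9.713 ± 0.484 in HFD and 9.737 ± 0.466 in LFD embryos, with an edgeR log2 fold change of 0.045 (SE 0.067, FDR 0.853). Oosp2 had 4.92 ± 0.74 and 4.891 ± 0.775, with 0.062 (SE 0.113, FDR 0.889). Oosp3 had 9.116 ± 0.646 and 9.104 ± 0.434, with 0.159 (SE 0.082, p = 0.0548, FDR 0.394). The value for Oosp3 depended on the measure, since its mean log2 levels differed by 0.012 (permutation p = 0.879), and leaving out HFD embryo 28 took the log2 ratio of mean CPM from 0.093 to 0.05. Oosp1 depended on the measure too, since its medians of log2 level differed by -0.171, and 34.4% of HFD embryos (42) were above its LFD median. That share was 50.8% for Oosp2 and 54.9% for Oosp3. The top LFD value was exceeded by 4 HFD embryos for Oosp3 and by 5 for Oosp1.

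In all, 0 of 5 members were called, beside 2.15% of all genes tested (318 of 14820, with 1.26% called higher and 0.891% lower). At an unadjusted p under 0.05 it was 2 of 5, Omt2a and Omt2b, beside 13.1% of all genes. The tools differed on this pair. DESeq2 called neither (0 of 5 members, 2.89% of all genes), while limma-voom called Omt2b (log2 fold change 0.18, FDR 0.0357) and not Omt2a (FDR 0.0825), with 2.23% of all genes called. A 2-sided permutation test with 100000 permutations of the mean log2 level gave a difference of 0.118 (p = 0.0282) for Omt2a and 0.14 (p = 0.00917) for Omt2b, and p of 0.713, 0.771 and 0.879 for Oosp1, Oosp2 and Oosp3.

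The call for the Omt2 genes turned on which libraries entered. Without the 8 embryos of few genes the fold changes were 0.182 (SE 0.044, FDR 0.00366) for Omt2a and 0.209 (SE 0.044, FDR 0.0005) for Omt2b, and both were called, beside 3.8% of all genes in that fit. Without HFD embryos 31 to 70, a run of 38 embryos singled out because earlier results of these data showed high mt-tRNA there, they were 0.038 (SE 0.065, FDR 0.928) and 0.055 (SE 0.066, FDR 0.874), with 1.19% of all genes called. With both sets left out they were 0.119 (SE 0.049, FDR 0.265) and 0.143 (SE 0.049, FDR 0.126), with 1.73% of all genes called. The direction stayed the same in these fits.

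**Figure D3:**
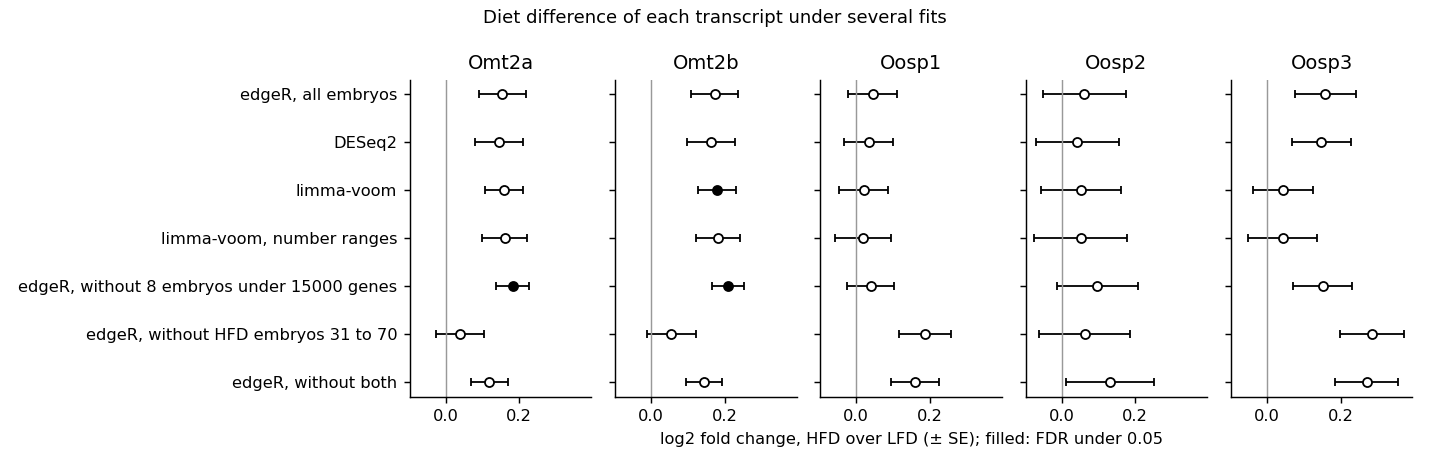
Log2 fold change of each transcript, HFD over LFD, with its SE, in 7 fits that differ in tool or in the embryos kept; filled points have an FDR under 0.05. Omt2a and Omt2b are filled in the fit without the 8 embryos under 15000 genes (Omt2b with limma-voom too) and lie nearer 0 without HFD embryos 31 to 70, where Oosp1 and Oosp3 move up instead.

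Levels in HFD embryos 31 to 70 are given as a description with no test. Since the run was singled out by its mt-tRNA, and the Omt2 genes were chosen because they follow mt-tRNA, their higher level there is not a separate finding. The median of Omt2a was 5563 CPM in these 38 embryos, 4483 CPM in the other 84 HFD embryos and 4231 CPM in LFD embryos. For Omt2b the medians were 5549, 4356 and 4136 CPM. Oosp1 had 723.1, 892.9 and 935.3 CPM and Oosp3 497.7, 664.8 and 560.2 CPM, with the lowest of the 3 medians in that run for both genes. Oosp2 had 27.54, 27.6 and 27.44 CPM. With the run left out, the edgeR diet log2 fold change of Oosp1 was 0.187 (SE 0.07, p = 0.00775, FDR 0.228). That of Oosp3 was 0.286 (SE 0.087, p = 0.00121, FDR 0.0776), and neither FDR was past the threshold.

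Within ranges of 10 embryo numbers, which need not be batches, 11 ranges held both diets. Omt2a and Omt2b were each higher in HFD embryos in 9 of 11, with differences of mean log2 level from -0.317 to 0.575 and from -0.164 to 0.626. The largest were those of numbers 41 to 70, at 0.465 to 0.575 for Omt2a. Oosp3 changed sign along the numbers. It was higher in HFD embryos in the 4 ranges from 1 to 40, by 0.717 in numbers 1 to 10, and lower in the 7 ranges from 41 to 110, with a median over all ranges of -0.163. Oosp1 was higher in HFD embryos in 4 ranges and Oosp2 in 7. With the ranges of each diet as a random effect in limma-voom, the FDR was 0.271 for Omt2a and 0.16 for Omt2b, 0 of 5 members were called, and so were 0.58% of all genes.

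**Figure D4:**
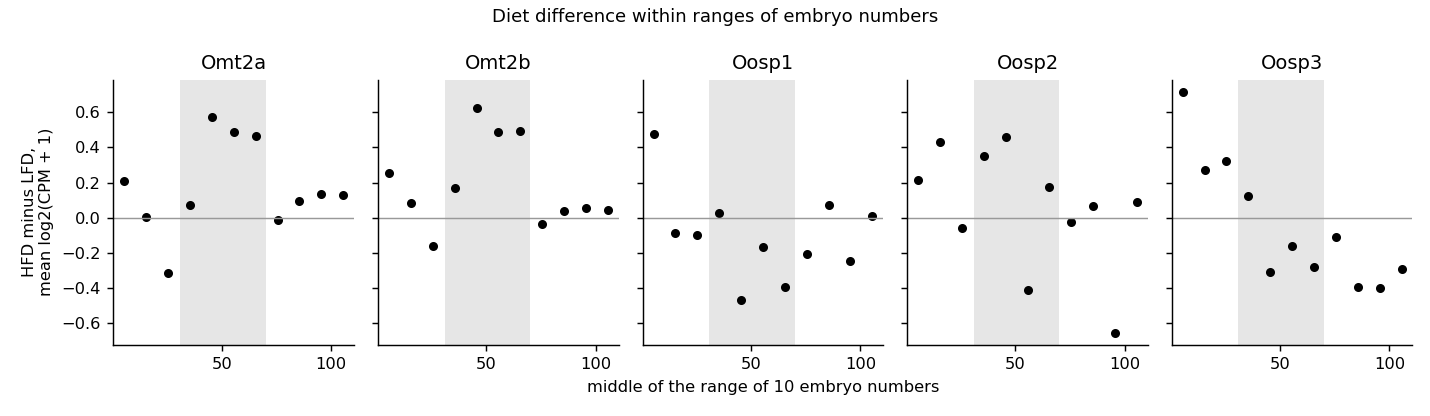
Difference of the mean log2(CPM + 1), HFD minus LFD, within each range of 10 embryo numbers, 1 panel per transcript; the grey band covers numbers 31 to 70. The Omt2 genes peak inside the band, and Oosp3 goes from positive to negative values along the numbers.

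The highest Omt2 levels belonged to 7 embryos with over 10000 CPM of both genes, a limit set after the values were seen, 4 HFD (28, 42, 48 and 64) and 3 LFD (26, 33 and 73). The other 214 embryos reached at most 8467 CPM for Omt2a and 8408 CPM for Omt2b. Of these 7 embryos, 6 are among the 8 with fewer than 15000 genes, and the remaining one, HFD embryo 28, had 16421 genes. Within the 7, the Oosp levels went different ways: HFD embryo 28 had 2706 CPM of Oosp1, while LFD embryo 33 had 180.8 CPM and HFD embryo 64 had 243.7 CPM.

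Over all embryos, Omt2 levels were higher where fewer genes had a count. The median of Omt2a was 11380 CPM in the 8 embryos of few genes and 4495 CPM in the other 213, and its r with the number of detected genes came to -0.709 among HFD embryos and -0.616 among LFD embryos. Without the 8 it was -0.522 and -0.373. Oosp1 went the other way, with medians of 495.1 and 873.8 CPM and r of 0.525 and 0.528 (0.437 and 0.366 without the 8). For Oosp3 r was 0.264 and 0.354. With the number of detected genes as a covariate, the diet fold change was 0.149 (FDR 0.0357) for Omt2a and 0.171 (FDR 0.0114) for Omt2b, with 2.81% of all genes called. The part of library quality in the Omt2 levels was not tested beyond these values.

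**Figure D5:**
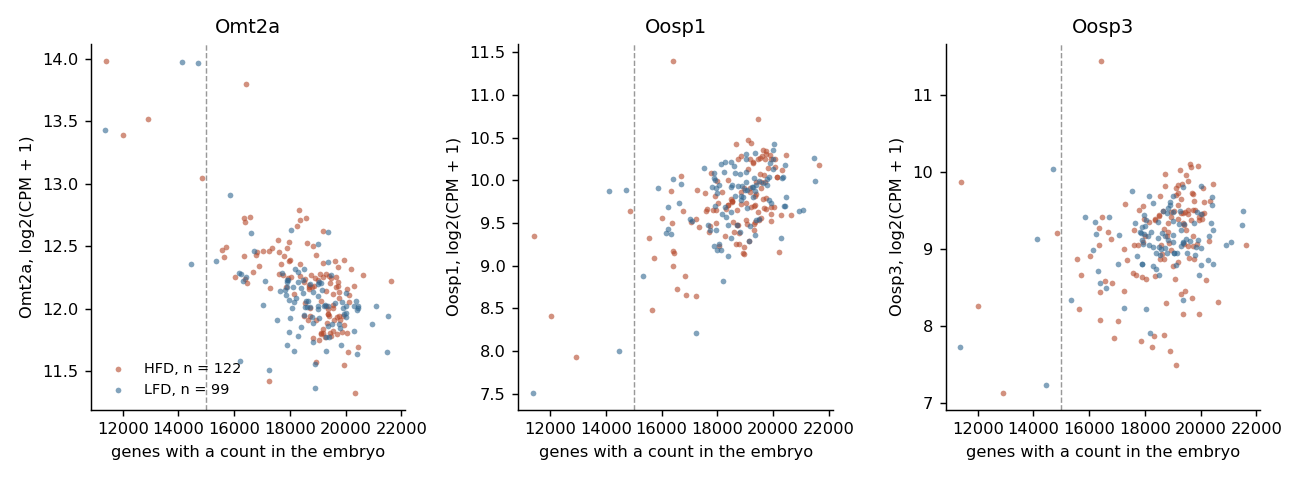
Level of Omt2a, Oosp1 and Oosp3 in log2(CPM + 1) against the number of genes with a count, 1 point per embryo, HFD and LFD (n = 99); the dashed line marks 15000 genes. Omt2a is lower and Oosp1 higher in embryos with more genes, and 6 of the 8 embryos left of the line hold the top Omt2a levels together with HFD embryo 28.

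A further question was whether these maternal transcripts are lower in embryos that have gone further in switching on their own genes. The level of genome activation was the log2 of the summed CPM of 25 transcripts that the embryo first makes at the 2-cell stage, such as the Zscan4 and Tdpoz families and Zfp352. HFD embryos had 11.685 ± 0.381 and LFD embryos 11.638 ± 0.338, which differ by 0.047 (permutation p = 0.336). The edgeR slopes on it, in log2 level per unit of log2 and with diet as a covariate, were 0.096 (SE 0.082, FDR 0.438) for Omt2a, 0.128 (SE 0.083, FDR 0.286) for Omt2b and -0.147 (SE 0.09, FDR 0.253) for Oosp1. They were 0.168 (SE 0.139, FDR 0.42) for Oosp2 and -0.007 (SE 0.106, FDR 0.975) for Oosp3. No member was called (0 of 5), beside 18.9% of 14795 genes (8.58% positive and 10.3% negative), and 0 of 5 had an unadjusted p under 0.05, beside 32.2%. DESeq2 also called 0 of 5.

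The answer for the Omt2 genes depended on how the level was summarised. With the mean of the log2 levels of the 25 transcripts in place of the log2 of their sum, the slopes were -0.43 for Omt2a (FDR 2.51e-07) and -0.423 for Omt2b (FDR 5.25e-07), in a fit that called 29.9% of all genes. Without the 8 embryos of few genes and with the sum, they were -0.057 (FDR 0.514) and -0.026 (FDR 0.784). With the number of detected genes as a covariate they were -0.141 (FDR 0.0807) and -0.103 (FDR 0.232), beside 21.1% of all genes called, and without HFD embryos 31 to 70 they were -0.014 (FDR 0.93) and 0.022 (FDR 0.887). The sign of the Omt2 slopes on the summed level was thus not settled by these data. For Oosp2, limma-voom gave a slope of 0.436 (FDR 0.0241), with 22.7% of all genes called. The difference of the slope between the diets was not past the threshold for any member (edgeR FDR 0.999 for each), with 0.0% of all genes called and 3.48% at an unadjusted p under 0.05.

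The slope on the mt-tRNA level without mt-Ts1 chose the Omt2 genes and is a description. The level is the log2 of the summed CPM of 21 of the 22 mt-tRNA genes, with 6.947 ± 0.809 in HFD embryos and 6.462 ± 0.516 in LFD embryos. Per unit of it the slope was 0.366 (SE 0.036) for Omt2a and 0.383 (SE 0.036) for Omt2b, while the slopes of Oosp1, Oosp2 and Oosp3 were -0.061 (SE 0.049), -0.042 (SE 0.074) and 0.027 (SE 0.059). In that contrast 30.3% of 14810 genes had an FDR under 0.05. For both Omt2 genes the slope was larger among LFD embryos (0.546 and 0.562) than among HFD embryos (0.294 and 0.31), a difference that was not tested. LFD embryos 73 and 26, both among the 8 embryos of few genes, had mt-tRNA levels of 7.85, the highest in LFD, and 7.84. Their Omt2a levels were 16070 and 16000 CPM. Slopes within a diet were not computed without the 8. Over both diets the slope was 0.219 and 0.235 without the 8 embryos of few genes, 0.188 and 0.209 with the number of detected genes as a covariate, and 0.418 and 0.448 without HFD embryos 31 to 70. Oosp slopes moved with the embryos kept as well. Without HFD embryos 31 to 70 they were 0.171 (SE 0.061) for Oosp1, -0.038 (SE 0.095) for Oosp2 and 0.284 (SE 0.071) for Oosp3. Without the 8 embryos they were -0.035 (SE 0.047), -0.2 (SE 0.076) and 0.026 (SE 0.06).

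Other mitochondrial RNAs gave Omt2 slopes of the same sign. On mt-Ts1 alone they were 0.379 for Omt2a and 0.376 for Omt2b, and on the summed level of the 13 mitochondrial messenger RNAs 0.524 and 0.533. For Oosp1 and Oosp3 the slopes on these messenger RNAs were 0.205 and 0.261, and for Oosp2 0.016. CPM of nuclear genes share the total with mitochondrial counts. Counted among nuclear genes alone, the slopes on the mt-tRNA level were 0.355 for Omt2a and 0.372 for Omt2b.

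Other oocyte genes give the setting for these values. Of 40 genes known for their expression in the oocyte, 38 were tested. Of these, 0 were called higher and 2 lower in HFD embryos, where 1.26% and 0.891% of all genes were called, with a median log2 fold change of -0.022 beside 0.014 over all genes. The 2 were Zfp36l2, which promotes decay of messenger RNA (-0.519, SE 0.141, FDR 0.022), and Tle6, a part of the subcortical maternal complex (-0.226, SE 0.067, FDR 0.0444), both named after their values were seen. None of the 12 genes for secreted or surface proteins of the egg was called (0 of 12), with a median of -0.016. All of the 12 except Cd81 are also among the 40, so these lists are not separate evidence. On the 2-cell-stage level 10 of the 38 had a positive and 2 a negative slope past the threshold, where 8.58% and 10.3% of all genes were called, with a median of 0.104 beside -0.012 over all genes.

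The most abundant genes of the oocyte list showed positive slopes where the Omt2 genes did not pass the test. Tcl1, a coactivator of the kinase AKT, had medians of 8365 CPM in HFD and 9059 CPM in LFD embryos and a slope of 0.53 (SE 0.078, FDR 2.75e-08). Dppa3, which protects the maternal genome from demethylation, had 3196 and 3120 CPM and a slope of 0.391 (FDR 0.000716). Btg4, which brings the deadenylase to maternal messages, had 3404 and 3300 CPM and a slope of 0.252 (FDR 0.00271). Their diet fold changes were -0.051, 0.092 and 0.094, with FDR of 0.816, 0.642 and 0.428. Whether these slopes differ from those of the Omt2 genes was not tested.

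Among the secreted and surface proteins, the growth factors Bmp15 and Gdf9 and the receptor Kit were the most abundant. Their medians in HFD and LFD embryos were 1305 and 1539 CPM for Bmp15, 334.6 and 346 CPM for Gdf9, and 205.6 and 235.6 CPM for Kit. Oosp1 and Oosp3 lay between Bmp15 and Gdf9 in these CPM values, which are not per length. Slopes of the 3 genes on the 2-cell-stage level were 0.186, 0.087 and 0.015, with FDR of 0.311, 0.423 and 0.925. In this list of 12 genes, 0 had a positive and 1 a negative slope past the threshold, where 8.58% and 10.3% of all genes were called. The 1 was the egg membrane protein Cd9 (-0.466, SE 0.116, FDR 0.00166), named after its value was seen and already counted in the oocyte list.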

How the data were processed

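RNA of 221 single 2-cell embryos (122 HFD, 99 LFD by the labels) was analysed. The authors deposited a table of unnormalized counts, 1 row per gene symbol and 1 column per embryo. Per the submitters' processing notes and the study's methods, adaptors were trimmed with Trim Galore 0.6.6, reads were quality checked with MultiQC 1.11 and aligned with STAR 2.7.10a to GRCm38 carrying the Staudach mtDNA. Per the file headers, featureCounts 2.0.3 counted each read of a pair over exons of Ensembl release 102, with strand setting 2 and both ends aligned. Of counts above 0, 65.8% were even.

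Differences were tested with edgeR 4.0.16 (quasi-likelihood, TMM, filterByExpr by diet; all 5 members passed, as did 14820 genes) in R 4.3.3, with Benjamini-Hochberg adjustment over all genes and an FDR threshold of 0.05. The study's tool, DESeq2 (1.42.0 here), and limma 3.58.1 (voom) served as alternatives. The fits were tested on simulated data. SE was the fold change over the root of F. CPM divides by all counts, log2 levels add 1 to CPM, and summed levels add 0.5. The mt-tRNA and 2-cell-stage genes were left out of the genes tested on their own level. Promoter and transcript sequences came from RefSeq and GENCODE tables of GRCm38 through Python 3.11.15 and Biopython 1.88. Reads carry no molecular identifiers, so counts are not numbers of molecules and every error is the spread between embryos.

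The members, gene lists, tests and the run of HFD embryos 31 to 70 were chosen with earlier results of these data known. Besides the members, genes were named by rule: the 3 most correlated with each member (mean log2 CPM of 3 or more), the 4 nearest on each side of each locus, leaving out Gm and Rik names, and the 3 most abundant of each list. List genes that passed a test were added after their values were seen, and 1 gene that the rule names is not reported here. Of the 40 oocyte genes, 39 matched a symbol of the table.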

Additional observations from a re-analysis of the deposited data

How the results depend on the processing

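Over 16 alternatives the diet fold change of Omt2a ran from 0.038 to 0.215 and that of Omt2b from 0.055 to 0.238. Both passed the threshold without embryos under 15000 genes (0.182 and 0.209), with the number of detected genes as covariate (0.149 and 0.171, added after seeing the data) and in the permutation test of mean log2 levels (0.118 and 0.14), which is not adjusted over genes. Omt2b alone passed without a filter on low counts (0.166) and with limma-voom (0.18). For Oosp1, Oosp2 and Oosp3 no alternative passed in FDR or in the permutation test, while the values ran from -0.171 to 0.187, from -0.021 to 0.132 and from -0.163 to 0.286. Without HFD embryos 31 to 70 the unadjusted edgeR p was 0.00775 for Oosp1 and 0.00121 for Oosp3. With the embryos under 15000 genes left out too, it was 0.0175 and 0.0018. The share of all genes at such p-values in these fits is not given. The sign of Oosp1 turned in the permutation test (-0.024) and in the difference of medians (-0.171). Embryo numbers occur in both diets for 94 pairs, but they do not pair the embryos: the correlation of same-numbered embryos ran from -0.29 to 0.284, was above 0.1 in 17 pairs, and 0 HFD embryos were most like their own number. In those embryos limma-voom with the replicate block gave 0.215 for Omt2a and 0.238 for Omt2b, and without the block 0.211 and 0.234, all past the threshold. Neither of these fits passed for Oosp1 (-0.104 with and -0.117 without the block) or Oosp3 (-0.024 and -0.083), where both signs turned. Leaving out 1 embryo at a time moved the log2 ratio of mean CPM within 0.088 to 0.152 for Omt2a, 0.106 to 0.177 for Omt2b, -0.032 to 0.001 for Oosp1, -0.021 to 0.068 for Oosp2 and 0.05 to 0.106 for Oosp3, the lowest of these without HFD embryo 42, 42, 28, 5 and 28. The 318 genes called by diet became 7030 with no filter, 86 with number ranges as a random effect, 785 and 782 in same-numbered embryos without and with the replicate block, 563 without embryos under 15000 genes and 176 without HFD embryos 31 to 70. The cause was not tested.

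For the slope on the 2-cell-stage level, the mean of log2 levels reversed Omt2a (-0.43) and Omt2b (-0.423), both past the threshold, and turned Oosp1 (0.025), Oosp2 (-0.072) and Oosp3 (0.015), which did not pass. The Omt2a and Omt2b slopes also turned, without passing, when embryos under 15000 genes were left out (-0.057 and -0.026) and with detected genes as covariate (-0.141 and -0.103), and that of Omt2a without HFD embryos 31 to 70 (-0.014). The slope of Oosp3, close to 0, turned without passing with limma-voom (0.207), with number ranges as a random effect (0.191), among nuclear counts (0.057), without embryos under 15000 genes (0.027), without HFD embryos 31 to 70 (0.005), in LFD embryos (0.119) and with detected genes as covariate (0.02). Omt2b passed among nuclear counts (0.237), and Oosp2 passed with limma-voom (0.436) and with number ranges as a random effect (0.43). The 2799 genes called became 7045 with no filter, 4425 with the mean of log2 levels, 1066 in HFD and 625 in LFD embryos alone, where fewer embryos entered. For the slope on the mt-tRNA level, Oosp1 changed sign in LFD embryos (0.118), without HFD embryos 31 to 70 (0.171), with mt-Ts1 in the level (0.14), on mt-Ts1 alone (0.204), on the 13 mitochondrial messenger RNAs (0.205) and with detected genes as covariate (0.063), and Oosp2 in HFD embryos (0.019) and on those messenger RNAs (0.016). The cause was not tested. Depth limits Oosp2 most, with as few as 28 counts in an embryo.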
